A study of Mus musculus with 36 samples.

Results

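Transcripts of 10 genes that mark macrophages were followed through mouse CD4+ T cell preparations: Csf1r, Cd14, Adgre1, Tyrobp, C1qa, C1qb, C1qc, Cd68, Lyz2 and Spi1. The members were chosen by gene name with earlier results of these data known, and all 10 are among the 56748 genes of the count table. Shares of all genes set beside counts of members are therefore a description. RNA-seq had been run on 36 libraries of 12 groups, 3 per group, to ask how loss of the heterochromatin proteins HP1α or HP1γ alters CD4+ T cells before and after an allogeneic response, with or without suppression by regulatory T cells (Treg). The library labelled HP1γ KO Tconv with Treg, replicate 3, which the study had set aside on quality measures, was left out, so that 35 libraries were used and this group held 2.

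In the HP1α line, a floxed Hp1a allele had been recombined in the germline with CMV-cre, so that KO mice lacked HP1α in every cell type. In the HP1γ line, a floxed Hp1g allele had been recombined in T cells by Cd4-cre, and the WT littermates carried the floxed allele without Cre. Both lines were on a mixed 129/Sv and C57BL/6 background, and donors were sex-matched littermates aged 6 to 12 weeks. Naive cells were splenic CD4+ T cells isolated by negative selection with magnetic beads. Tconv were the same kind of naive cells (WT or KO) recovered 3 weeks after injection into lethally irradiated C57BL/6J or CD45.1+ B6 hosts, which had received equal parts of T and NK cell-depleted B6 and B6D2F1 marrow, without Treg (Tconv) or with expanded WT Treg (Tconv with Treg). From host spleens they were enriched on anti-CD4 beads and then sorted for TCR Vβ6+ and H-2Kb+ H-2Kd- cells among CD4+ CD45.2+ cells lacking CD45.1 and the Thy1.1 label of the Treg. Libraries were made from picogram amounts of RNA. The deletions were carried by the injected T cells. Hosts and marrow were not of the HP1 lines. The labels do not say whether the replicates of a group came from separate animals, so the p-values measure the spread between these libraries, which may be technical.

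Macrophages are tissue phagocytes that clear dying cells, debris and aged erythrocytes, and the spleen, from which these T cells were taken, holds several kinds of them. Their growth and survival depend on signals through the receptor encoded by Csf1r, and their identity on the transcription factor PU.1, encoded by Spi1. T cells are not known as a source of C1q, of the F4/80 antigen encoded by Adgre1 or of CD14, whereas Lyz2 and Tyrobp are also transcribed by neutrophils and monocytes, and Tyrobp by NK cells. In bulk RNA, fewer cells of a type and less RNA per cell cannot be told apart.

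Promoter sequences are shown because PU.1, itself a member, acts through purine-rich sites in the promoters of many macrophage genes. RefSeq sequences (GRCm38.p6) were matched for 4 of the 10 members, all read from the minus strand, and the 250 bases before the annotated start are given 5′ to 3′, with GAGGAA or its reverse complement TTCCTC, a core found in PU.1 sites, in capitals.
C1qb promoter, chr4:136886201-136886450: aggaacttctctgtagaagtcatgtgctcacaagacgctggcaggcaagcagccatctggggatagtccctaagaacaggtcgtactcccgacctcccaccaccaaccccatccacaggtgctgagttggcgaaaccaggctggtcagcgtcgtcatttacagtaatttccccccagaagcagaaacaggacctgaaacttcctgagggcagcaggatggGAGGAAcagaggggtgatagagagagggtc
C1qc promoter, chr4:136892915-136893164: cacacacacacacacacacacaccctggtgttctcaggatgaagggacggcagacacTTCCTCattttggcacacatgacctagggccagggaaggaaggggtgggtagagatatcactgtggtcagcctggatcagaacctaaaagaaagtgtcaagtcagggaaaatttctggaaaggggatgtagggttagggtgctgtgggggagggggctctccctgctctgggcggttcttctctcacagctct
Cd68 promoter, chr11:69666171-69666420: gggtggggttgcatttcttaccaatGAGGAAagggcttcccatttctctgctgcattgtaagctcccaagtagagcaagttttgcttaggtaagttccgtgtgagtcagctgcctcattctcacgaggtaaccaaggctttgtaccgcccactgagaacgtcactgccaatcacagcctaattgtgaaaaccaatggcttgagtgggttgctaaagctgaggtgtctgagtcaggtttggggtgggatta
Lyz2 promoter, chr10:117282273-117282522: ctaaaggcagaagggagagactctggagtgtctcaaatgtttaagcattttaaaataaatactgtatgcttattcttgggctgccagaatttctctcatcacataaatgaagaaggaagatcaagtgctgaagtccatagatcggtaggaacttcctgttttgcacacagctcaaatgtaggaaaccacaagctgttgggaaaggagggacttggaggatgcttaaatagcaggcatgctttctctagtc
The 6 letters were present once in 3 of these 4 windows. In C1qb they began 30 bases before the start, in C1qc 193 bases before it on the other strand, and in Cd68 225 bases before it. Of 32851 RefSeq promoter windows of the same length, 23.3% held the 6 letters on either strand. No sequence is given for Csf1r, Cd14, Adgre1, Tyrobp, C1qa or Spi1. In GRCm39, the build of the count table, the 3 C1q genes lie next to each other on the minus strand of chromosome 4, C1qb at 136606009-136613511, C1qc at 136616466-136620376 and C1qa at 136623223-136626161 (GENCODE).

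Library totals ran from 37029500 to 63042200 estimated counts, with a median of 46844700, so that the 3 counts taken as the detection floor were worth 0.0476 to 0.0810 CPM. Levels are in CPM, counts relative to library size, after TMM scaling. Cbx5, which encodes HP1α, was at 18.6 to 61.9 CPM in the 9 WT and 9.25 to 19.7 CPM in the 9 KO libraries of the HP1α line, and Cbx3, which encodes HP1γ, at 79.5 to 200.1 CPM in 9 WT and 59.4 to 80.8 CPM in 8 KO libraries of the HP1γ line, and both pairs of ranges, which pool naive and grafted cells, overlapped. These are RNA levels. In naive KO cells the study reported HP1α as completely absent and HP1γ as almost completely deleted, with western blots of the proteins. A list of 10 T cell genes summed to between 8149.7 and 14602 CPM in the naive and between 8441 and 12829.9 CPM in the grafted libraries, and each of the 10 was at 1 CPM or more on average in naive cells. Other cell type lists are given beside the results they move with.

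Summed over the 10 genes, macrophage transcripts were scarce in naive T cells and abundant in most grafted ones. The 12 naive libraries held 2.87 to 8.22 CPM (median 5.59). The 23 grafted libraries held 6.24 to 418.8 CPM (median 59.2), and 20 of them lay above every naive library. The exceptions were the 3 HP1α WT Tconv libraries, at 7.84, 6.24 and 6.45 CPM in replicates 1, 2 and 3. The highest levels were in KO cells of the HP1α line. HP1α KO Tconv held 62.8, 14.8 and 285.6 CPM, and HP1α KO Tconv with Treg held 321.6, 56.2 and 418.8 CPM. In both KO groups replicate 2 was the lowest, and the 3 highest libraries carried 50.5% of the summed level of all 23 grafted libraries. HP1α WT Tconv with Treg held 34.7, 31.1 and 59.2 CPM, above the WT cells without Treg and within the range of KO Tconv.

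KO and WT libraries of the HP1γ line overlapped in both conditions. WT Tconv held 71.7, 26.96 and 72.4 CPM and KO Tconv 26.4, 53.9 and 101.2 CPM. With Treg, WT cells held 31.1, 99.1 and 79.6 CPM and the 2 KO libraries 70.6 and 95.4 CPM. All 4 grafted groups overlapped. Ordered by their means, the 4 naive groups came first, from 4.96 ± 1.90 (SD, n = 3) in HP1α WT to 5.74 ± 1.27 (n = 3) in HP1γ WT, followed by HP1α WT Tconv at 6.84 ± 0.869 (n = 3). A gap with no overlap separated it from HP1α WT Tconv with Treg at 41.7 ± 15.3 (n = 3). The HP1γ groups followed at 57.0 ± 26.0 (WT Tconv, n = 3), 60.5 ± 37.8 (KO Tconv, n = 3), 69.9 ± 35.03 (WT with Treg, n = 3) and 82.99 ± 17.6 (KO with Treg, n = 2), and HP1α KO Tconv at 121.1 ± 144.5 (n = 3) and KO with Treg at 265.5 ± 187.7 (n = 3) came last. That gap was the only place in the order where neighbouring groups did not overlap in their libraries. The 2 lines differ in their WT Tconv, which were not compared by a test because each line has its own controls.

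**Figure D1:**
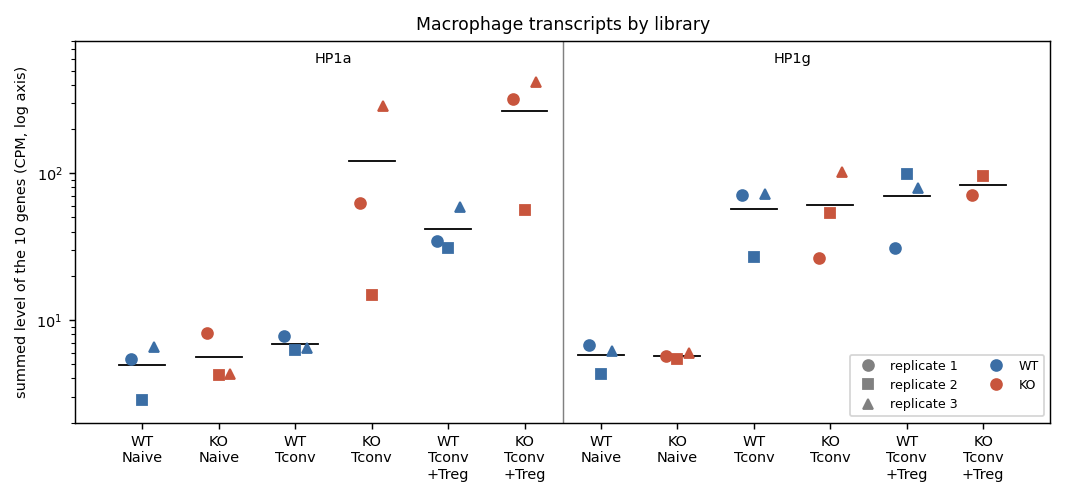
Summed level of the 10 macrophage genes (CPM after TMM scaling, log axis) in each of the 35 libraries, by group; symbols give the replicate, colours the genotype, and horizontal lines the group means. The 12 naive libraries and the 3 HP1α WT Tconv libraries lie between 2.87 and 8.22 CPM, and every other library lies at 14.8 CPM or above.

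Csf1r encodes the receptor for CSF1 and interleukin 34. It was the most abundant member by counts in naive cells, at 1.37 to 3.07 CPM in the 12 libraries, and HP1α WT Tconv stood at about the same level, 2.26, 1.26 and 2.07 CPM. HP1α KO Tconv held 13.8, 4.36 and 62.6 CPM, each above the 3 WT libraries. With Treg, HP1α WT cells held 3.83, 5.36 and 6.49 CPM and KO cells 40.5, 8.2 and 56.4 CPM, again without overlap. HP1γ cells held 3.56, 7.25 and 16.4 CPM in WT and 3.38, 12.2 and 21.3 CPM in KO Tconv. With Treg they were 1.86, 17.3 and 13.4 CPM in WT and 3.42 and 19.5 CPM in KO cells, so that replicate 1 was the lowest of each HP1γ grafted group.

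Cd14 encodes the coreceptor that presents bacterial lipopolysaccharide to TLR4. It was near the detection floor in naive cells, with 0 counts in 4 and at most 8 counts in any of the 12 libraries. HP1α WT Tconv had 1, 2 and 4 counts, or 0.0272, 0.0422 and 0.107 CPM. HP1α KO Tconv reached 0.763, 0.577 and 5.75 CPM and KO Tconv with Treg 5.94, 0.298 and 6.77 CPM, whereas WT Tconv with Treg held 0.528, 1.37 and 0.753 CPM. Without Treg the HP1α KO libraries were all higher than WT, and with Treg the groups overlapped through KO replicate 2. The 11 HP1γ grafted libraries lay between 0.677 and 2.13 CPM.

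Adgre1 encodes F4/80, the classical surface antigen of mouse tissue macrophages. Naive libraries held 0 to 0.446 CPM, with at most 3 counts in 6 of 12. HP1α WT Tconv held 0.245, 0.0632 and 0.107 CPM against 3.81, 0.346 and 21.4 CPM in KO Tconv. With Treg, the WT libraries held 1.86, 1.28 and 0.597 CPM and the KO libraries 18.3, 1.37 and 27.3 CPM. KO replicate 2 fell inside the WT range with Treg and just above it without. Within the HP1γ line Adgre1 ranged from 0.123 CPM in WT Tconv with Treg, replicate 1, to 6.48 CPM in replicate 2 of the same group.

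Tyrobp encodes DAP12, an adaptor that carries the signal of several activating myeloid and NK receptors. Naive libraries held 0.0183 to 0.327 CPM and HP1α WT Tconv 0.707, 0.379 and 0.779 CPM. HP1α KO Tconv held 4.41, 1.45 and 22.2 CPM, all above WT. With Treg, HP1α WT cells held 2.62, 4.92 and 4.26 CPM and KO cells 25.2, 2.78 and 31.0 CPM. The HP1γ grafted libraries lay between 1.71 and 6.40 CPM. Divided by exon length (GENCODE union of exons), Tyrobp ranked first in grafted cells, with a mean of 9.04 CPM per kb over 23 libraries. Lyz2 at 7.998 and Cd68 at 5.36 followed. The union joins the exons of all annotated transcripts, 682 bases for Tyrobp and 6246 for C1qb, so this order depends on the annotation. In CPM alone Lyz2 had the highest grafted mean, 26.6 against 6.17 for Tyrobp. Spi1 at 0.800 and Cd14 at 1.0 CPM per kb were the lowest.

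The chains of complement C1q, which tags dying cells and immune complexes for uptake, are encoded by C1qa, C1qb and C1qc. In naive libraries the 3 chains together had 0 to 41 counts, or at most 0.609 CPM. HP1α WT Tconv held 1.20, 0.801 and 1.13 CPM of summed C1q, against 21.5, 5.01 and 126.1 CPM in KO Tconv. With Treg the HP1α WT libraries held 8.66, 4.97 and 21.6 CPM and the KO libraries 98.2, 7.50 and 110.5 CPM. Each chain was higher in all 3 KO than in all 3 WT Tconv libraries, whereas with Treg KO replicate 2 lay within the WT range.

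C1qb, the chain with the highest CPM, showed this most plainly, with 0.517, 0.464 and 0.510 CPM in HP1α WT Tconv and 9.06, 2.31 and 53.8 CPM in KO Tconv. In HP1γ WT Tconv, summed C1q was 2.49, 9.24 and 27.5 CPM, and in KO Tconv 2.02, 16.5 and 28.2 CPM. With Treg it was 1.29, 25.1 and 26.9 CPM in WT and 4.90 and 28.1 CPM in KO libraries. In each of these groups replicate 1 held the least C1q.

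Cd68 encodes a heavily glycosylated lysosomal membrane protein and Lyz2 the lysozyme of phagocytes. Both were present in every naive library, Cd68 at 0.628 to 1.53 CPM (27 to 83 counts) and Lyz2 at 0.485 to 3.32 CPM (26 to 146 counts). Divided by the same exon union, Cd68 ranked first among the members in naive cells, at a mean of 0.797 CPM per kb. Lyz2 shares much of its sequence with its neighbour Lyz1, so that its counts are less certain.

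Cd68 departed from the pattern of the other members. Its highest library was one of HP1α WT Tconv with Treg, where it stood at 10.2, 9.21 and 21.3 CPM, while the KO libraries held 18.2, 6.44 and 20.7 CPM. Without Treg it was at 2.01, 1.71 and 0.913 CPM in WT and 3.43, 1.78 and 19.0 CPM in KO cells, with overlap. The 2 HP1γ KO libraries with Treg held 11.2 and 8.35 CPM, above the WT libraries with Treg at 3.62, 4.41 and 3.61 CPM and above KO Tconv at 1.60, 4.67 and 7.75 CPM.

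Lyz2 reached the highest level of any member, 106.1, 27.8 and 154.1 CPM in HP1α KO Tconv with Treg. WT Tconv with Treg held 6.04, 0.523 and 3.14 CPM, and the groups did not overlap. In Tconv without Treg, WT cells held 1.12, 1.81 and 1.32 CPM and KO cells 13.5, 0.900 and 21.9 CPM, so that KO replicate 2 lay below all 3 WT libraries. HP1γ cells held 55.0, 3.95 and 10.6 CPM in WT and 15.04, 11.6 and 26.8 CPM in KO Tconv. With Treg it held 19.9, 35.8 and 26.0 CPM in WT and 43.0 and 25.7 CPM in KO cells.

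Spi1, the gene of PU.1, was low throughout. Naive libraries held 0.0209 to 0.225 CPM and HP1α WT Tconv 0.272, 0.169 and 0.0269 CPM, the last from 1 count. HP1α KO Tconv held 1.62, 0.392 and 6.63 CPM, each above WT. With Treg, WT libraries held 0.978, 3.51 and 1.14 CPM and KO libraries 9.28, 1.76 and 11.9 CPM. The 11 HP1γ grafted libraries lay between 0.519 and 3.09 CPM.

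**Figure D2:**
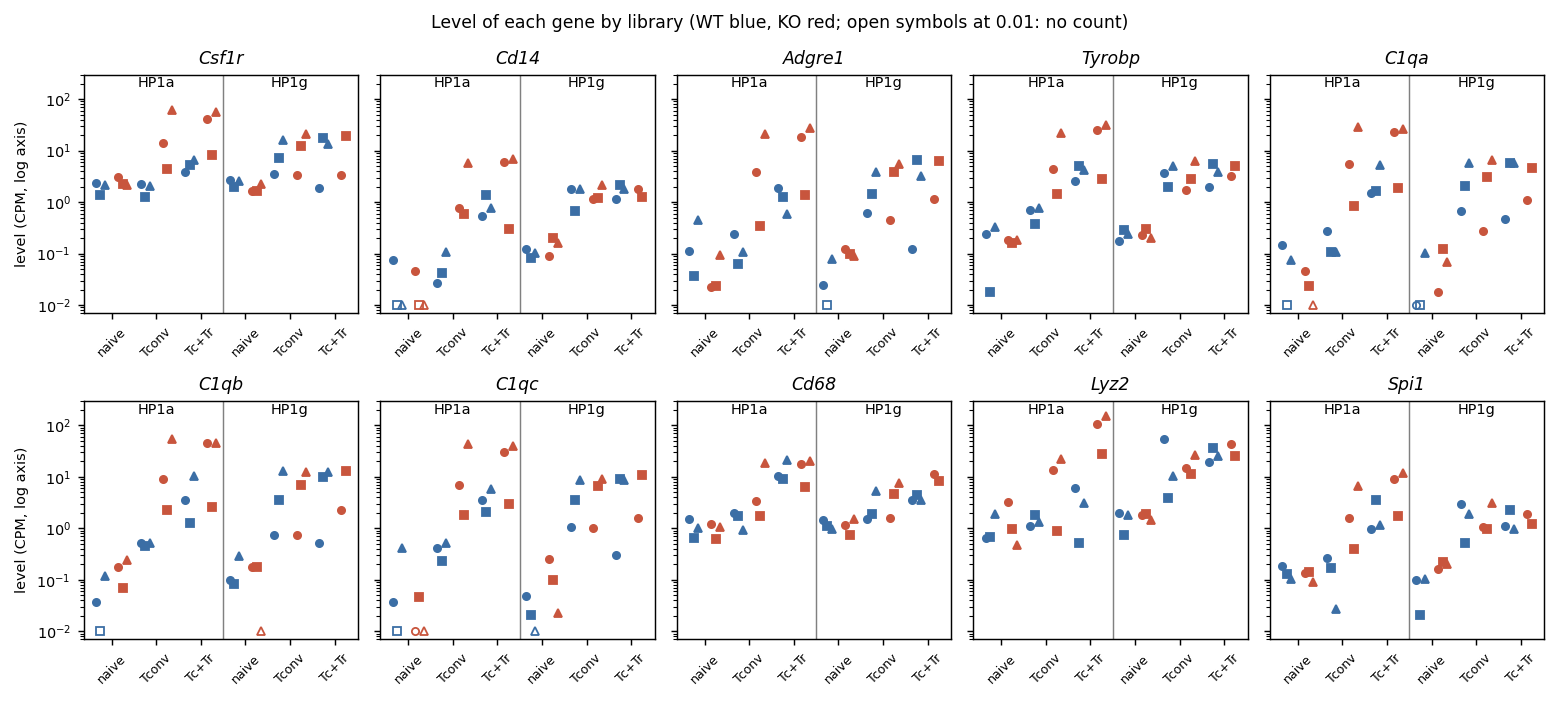
Level of each member (CPM after TMM scaling, log axis) in the 35 libraries, by line and condition (naive, Tconv, and Tconv with Treg written Tc+Tr); blue is WT, red is KO, circles, squares and triangles are replicates 1, 2 and 3, and open symbols at 0.01 are libraries without a count. Csf1r, Cd68 and Lyz2 have counts in every naive library, and the other 7 are near the floor there. HP1α KO Tconv replicate 3 and HP1α KO Tconv with Treg replicates 1 and 3 stand highest for most members.

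Tests were edgeR quasi-likelihood fits across all genes, and a gene is said to be called where its Benjamini-Hochberg adjusted p was below 0.05 and its log2 fold change beyond 1. The first question was how Tconv from the grafted hosts differed from naive cells. The WT Tconv libraries enter this comparison, that with Treg and that with KO cells, so that the 3 are not independent. In HP1γ cells all 10 members were higher in each WT Tconv than in each WT naive library, as were 27.4% of all genes tested, and 9 of the 10 were called higher, as were 15% of genes (2371 of 15812). The median log2 fold change of the members was 4.26, against -0.03 over all genes. The calls were led by C1qc (log2 fold change 7.40, SE 1.08, adjusted p = 0.00153), C1qa (6.33, SE 1.20, adjusted p = 0.00542) and Adgre1 (5.83, SE 1.03, adjusted p = 0.00381).

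These 3 folds rest on few naive counts. C1qc had 3 counts over the 3 WT naive libraries against 634 in WT Tconv, a ratio of 187.8 after scaling (95% exact interval 64.0 to 913.2, counting error only). C1qa and Adgre1 had 4 naive counts each, with ratios of 88.9 (34.4 to 327.8) and 62.9 (24.3 to 232.4). C1qb (5.21, SE 1.10, adjusted p = 0.00883), Spi1 (4.56, SE 0.81, adjusted p = 0.00381), Lyz2 (3.95, SE 0.96, adjusted p = 0.0160), Tyrobp (3.91, SE 0.47, adjusted p = 0.000571) and Cd14 (3.75, SE 0.53, adjusted p = 0.00137) also rose. Csf1r rose by 1.92 (SE 0.52, adjusted p = 0.0256), and Cd68 at 1.29 (SE 0.50, adjusted p = 0.0850) did not pass. When 1 of the 6 libraries was left out, the call of Csf1r was kept in 2 of 6 fits, lost without WT Tconv replicate 3 or any 1 of the 3 WT naive libraries (adjusted p up to 0.0885), that of Lyz2 in 3 of 6, lost without any 1 of the WT naive libraries (up to 0.0922), and that of C1qb in 5 of 6, lost without WT naive replicate 2 (0.0581).

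In the HP1α line 6 members had enough counts to be tested between WT Tconv and WT naive cells, and only C1qb was called (3.13, SE 0.80, adjusted p = 0.0126), where 12.9% of genes were called higher (2067 of 16027). C1qb and Tyrobp were higher in all 3 Tconv than in all 3 naive libraries, as were 29.5% of genes. Tyrobp at 1.64 (SE 0.75, adjusted p = 0.108) did not pass. Csf1r (-0.08), Lyz2 (0.41), Cd68 (0.54) and C1qc (1.27) had adjusted p between 0.348 and 0.867. The call of C1qb was lost when all 35 libraries shared 1 fit (0 members called).

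The ligand of the receptor was measured beside it. Csf1, which encodes macrophage colony-stimulating factor, rose in WT Tconv of both lines, by 8.03 on the log2 scale (SE 0.47, adjusted p = 3.34e-05) in the HP1α and 7.71 (SE 0.32, adjusted p = 4.08e-06) in the HP1γ line. The level of the 2 ligand genes, Csf1 and Il34, went from 0.639 to 1.95 CPM in naive to 21.4 to 381.3 CPM in grafted libraries. With Treg it was lower than without. In the HP1α line it was 33.4 to 88.1 against 109.1 to 249.5 CPM in WT and 21.4 to 53.5 against 70.7 to 338.8 CPM in KO cells. In the HP1γ line it was 64.5 to 178.4 against 218.8 to 381.3 CPM in WT and 83.9 and 85.1 against 101.4 to 254.8 CPM in KO cells. No ligand gene was called in these comparisons with Treg. In the HP1α line 18.7% of genes tested in WT and 12.4% in KO cells were lower in every library with Treg. In the HP1γ line these shares were 7.03% in WT and 12% in KO cells. Of 35 further phagocyte genes, 28 were tested in the HP1γ comparison, of which 20 were called higher and 2 lower, and 22 in the HP1α comparison, of which 11 were called higher and 3 lower. Some of these genes are also transcribed in T cells. Ccr2, a chemokine receptor of monocytes and of effector T cells, was the most abundant of them in grafted cells and rose by 12.21 (SE 0.31, adjusted p = 1.06e-07) and 11.21 (SE 0.31, adjusted p = 2.97e-06), and 10 of the 35 were at 1 CPM or more in naive cells, Ctss, a lysosomal cysteine protease, at 195.1 CPM.

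The called genes went both ways. Cd163, a haemoglobin scavenger receptor, Itgam and Lgmn were the 3 called lower in the HP1α comparison, and Lgmn and Ctss the 2 called lower in the HP1γ comparison. Among those called higher in both, Hmox1, which degrades haem, rose by 2.29 (SE 0.57, adjusted p = 0.0122) in the HP1α and 3.48 (SE 0.35, adjusted p = 0.000234) in the HP1γ comparison. Vcam1 rose by 3.49 (SE 0.55, adjusted p = 0.00124) and 5.61 (SE 1.01, adjusted p = 0.00424), and Spic, a transcription factor of red pulp macrophages, by 3.58 (SE 0.88, adjusted p = 0.0106) and 5.65 (SE 1.03, adjusted p = 0.00452).

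The next question was whether co-injected Treg moved the members. In HP1α WT cells, 7 of the 10 were called higher with Treg than without, where 3.54% of genes were (553 of 15627), and the members' median log2 fold change was 3.25 against 0.03 over all genes. Each member but Lyz2 was higher in all 3 libraries with Treg than in all 3 without, as were 15.7% of genes. C1qa rose by 4.13 (SE 0.77, adjusted p = 0.0204), Cd14 by 3.87 (SE 0.79, adjusted p = 0.0272), C1qb by 3.40 (SE 0.78, adjusted p = 0.0423) and C1qc by 3.32 (SE 0.58, adjusted p = 0.0158). Adgre1 (3.18, SE 0.76, adjusted p = 0.0464), Cd68 (3.16, SE 0.48, adjusted p = 0.00999) and Tyrobp (2.68, SE 0.48, adjusted p = 0.0173) also rose.

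Spi1 (3.58, SE 0.90, adjusted p = 0.0560), Csf1r (1.51, SE 0.39, adjusted p = 0.0627) and Lyz2 (1.21, SE 0.78, adjusted p = 0.399) did not pass. These calls were not stable to the loss of 1 library. Over 6 such fits the call of Cd68 was kept in 4 and those of Tyrobp, C1qa and C1qc in 3 each. Those of Cd14 and C1qb were kept in 2 each and that of Adgre1 in 1. Without HP1α WT Tconv replicate 1 only Cd68 was called, and without replicate 2 or replicate 3 of that group none was, although the fold changes of the members stayed above 0. Of the 28 further phagocyte genes tested, 10 were called higher and 1, Ccr2, lower (-3.30, SE 0.21, adjusted p = 0.00052). Those higher included Mpeg1 (6.35, SE 0.85, adjusted p = 0.00657), a pore-forming protein of phagocytes, and Cybb (4.27, SE 0.61, adjusted p = 0.00815), the catalytic subunit of the phagocyte oxidase. All 4 MHC class II genes tested rose as well, H2-Eb1 by 4.27 (SE 0.55, adjusted p = 0.00564). Their summed level was 34.7 to 47.1 CPM in WT Tconv and 88.6 to 390.1 CPM in WT Tconv with Treg. Its part in the result was not tested.

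In HP1α KO cells no member was called with Treg against without, where 0.44% of genes were called (71 of 16133). Lyz2 was the only member higher in all 3 libraries with Treg, as were 10.2% of genes, at a log2 fold change of 2.99 (SE 1.12, adjusted p = 0.287). DESeq2 also called no member there, and 1 member had an unadjusted p below 0.05 by either tool. The difference between the WT and KO responses to Treg was fitted as an interaction and called none of the 10, where 0.139% of genes were called (24 of 17205). Its members' median was -2.28 on the log2 scale. It was below 0 for 9 members and above 0 for Lyz2, no member had an unadjusted p below 0.05 by edgeR, and by DESeq2, which also called none, 2 had.

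With or without Treg, HP1γ cells held similar ranges of the members. No member was called in WT cells, where 0.0126% of genes were called (2 of 15903), nor in KO cells, where 0% were (0 of 16991). The members' median log2 fold changes were 0.34 and 0.17. Cd68 was higher in both KO libraries with Treg than in the 3 without, as were 12.3% of genes (1.08, SE 0.61, adjusted p = 0.741). The interaction called no member and 0% of genes (0 of 17833). In these 3 comparisons no member passed an unadjusted p of 0.05 by edgeR, and by DESeq2, which also called none, 1 did in KO cells.

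The central question was whether loss of HP1α or HP1γ changed these levels. Between naive KO and WT cells no member was called in either line, with 3 members tested in the HP1α line, where 0% of genes were called (0 of 15549), and 4 in the HP1γ line, where 0.00669% were (1 of 14939). None had an unadjusted p below 0.05 by edgeR or by DESeq2, which also called none. Fitted differences of Csf1r, Cd68 and Lyz2 were within 0.57 on the log2 scale in both lines.

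In HP1α KO against WT Tconv, the differences were large and variable. For 8 of the 10 members, all but Cd68 and Lyz2, each KO library was higher than each WT library, as were 7.11% of all genes, and the members' median log2 fold change was 4.74 against 0.00 over all genes. By edgeR no member was called, and 0.103% of genes were (16 of 15521). An unadjusted p below 0.05 was found for 9 members, and the share of all genes under that limit is not given. The fitted folds were 6.17 (SE 1.59) for C1qa, 5.96 (SE 1.74) for Adgre1, 5.54 (SE 1.47) for C1qc and 5.45 (SE 1.44) for C1qb, with adjusted p of 0.549 each. Cd14 was at 5.29 (SE 1.23, adjusted p = 0.530), Spi1 at 4.19 (SE 1.23, adjusted p = 0.549), Tyrobp at 3.92 (SE 1.13, adjusted p = 0.549) and Csf1r at 3.86 (SE 1.14, adjusted p = 0.552).

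DESeq2, which fits the spread in another way, called 7 of the 10 higher, where it called 1.02% of genes higher (184 of 18054), namely Csf1r, Cd14, Adgre1, Tyrobp and the 3 C1q genes. The tools gave C1qa fold changes of 6.17 each, with adjusted p of 0.549 by edgeR and 0.000504 by DESeq2. The summed level of the KO libraries spanned 14.8 to 285.6 CPM, and leaving out KO replicate 2, the lowest, 1 member was called by edgeR (Lyz2, 3.64, adjusted p = 0.00681). Of the 28 further phagocyte genes tested none was called by edgeR, and their median was 2.88.

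With Treg, most members were again higher in HP1α KO than in WT cells on average. No member was called by edgeR, and 0.123% of genes were (20 of 16256). An unadjusted p below 0.05 was found for 8 members, again without the share of all genes beside it. The median of the members was 2.55 against -0.01 over all genes. Csf1r (2.72, SE 0.64, adjusted p = 0.15) and Lyz2 (4.86, SE 0.95, adjusted p = 0.102) were higher in all 3 KO than in all 3 WT libraries, as were 11.7% of genes. DESeq2 called 6 members higher, Csf1r, Adgre1, Tyrobp, C1qa, C1qc and Lyz2, where it called 1.87% of genes higher (348 of 18581). By edgeR without KO replicate 2, Csf1r was called (3.19, adjusted p = 0.0477). Cd68 was at 0.13 (SE 0.50, adjusted p = 0.937), the smallest difference of the 10.

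Between HP1γ KO and WT Tconv no member was called, where 0.0437% of genes were called (7 of 16015), nor with Treg, where 0% were (0 of 17177). The members' medians were 0.24 and 0.10, and in Tconv none had an unadjusted p below 0.05 by edgeR or by DESeq2, which also called none. With Treg, Cd68 was higher in both KO libraries than in the 3 WT libraries, as were 14.9% of genes. Its fold change was 1.34 (SE 0.26, unadjusted p = 0.00185 and adjusted p = 0.192 in the edgeR fit). DESeq2 called it (1.33, adjusted p = 0.000104). The 0% above is the share of edgeR, and the share of all genes that DESeq2 called in this comparison is not given. The replicates spread widely around these differences, with an SE of 1.15 for C1qa and 1.22 for C1qb in Tconv. Deviations of same-numbered KO and WT Tconv libraries correlated at 0.0962 to 0.511. The fit had no replicate block, so these SEs include any difference that such libraries share.

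**Figure D3:**
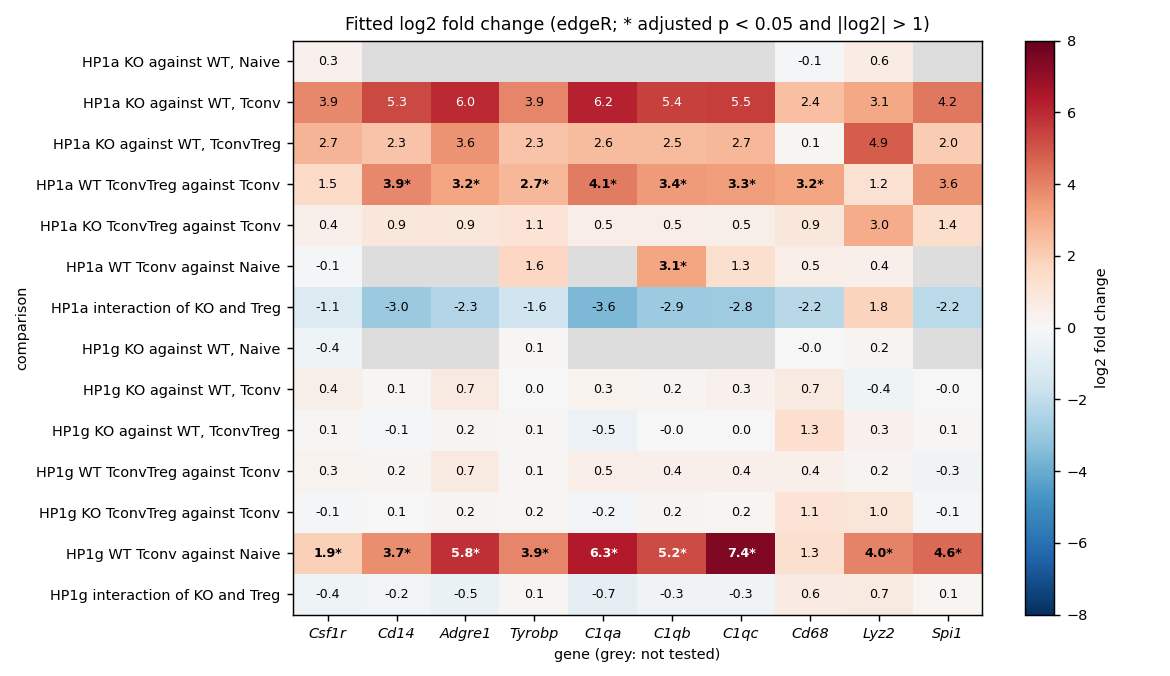
Fitted log2 fold changes of the 10 members (columns) in the 14 comparisons (rows) by edgeR; an asterisk marks a call, grey a member that was not tested. Calls are confined to HP1α WT Tconv with Treg against Tconv (7), HP1α WT Tconv against naive (1) and HP1γ WT Tconv against naive (9), while HP1α KO against WT Tconv has folds up to 6.17 and no call.

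The members kept some proportions to each other from library to library and not others. In the 19 grafted libraries with at least 100 C1q counts, C1qb made up 25.9 to 49.1% of the C1q counts (median 42.2%), C1qc 26.5 to 49.5% (median 36.8%) and C1qa 13.3 to 32.9% (median 22.7%), while summed C1q ranged from 2.02 to 126.1 CPM. The ratio of Csf1r to summed C1q lay between 0.301 and 1.68 (median 0.693). The ratio of Lyz2 to summed C1q ran from 0.105 in HP1α WT Tconv with Treg, replicate 2, to 22.1 in HP1γ WT Tconv, replicate 1. It was 0.63, 0.18 and 0.17 in HP1α KO Tconv and 1.08, 3.71 and 1.40 in HP1α KO Tconv with Treg, so that the 2 groups did not overlap.

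The replicate 1 libraries of the 4 HP1γ grafted groups formed a set apart. In them Lyz2 was 56.9 to 76.8% of the summed level and C1q 3.48 to 7.64%, against 14.6 to 36.1% and 25.3 to 38.0% in the other 7 HP1γ grafted libraries. Their erythroid genes summed to between 3419.6 and 6271 CPM, against 78.0 to 323.3 CPM in the other 7. The labels give no batch, and whether the number stands for a shared day or animal is not stated. Cd68 made up 29.4, 29.6 and 35.9% of the summed level in HP1α WT Tconv with Treg and 5.65, 11.5 and 4.95% in the KO cells of the same condition. Its share was 25.7, 27.4 and 14.2% in HP1α WT Tconv without Treg and 13.7 to 28.3% in the naive libraries.

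**Figure D4:**
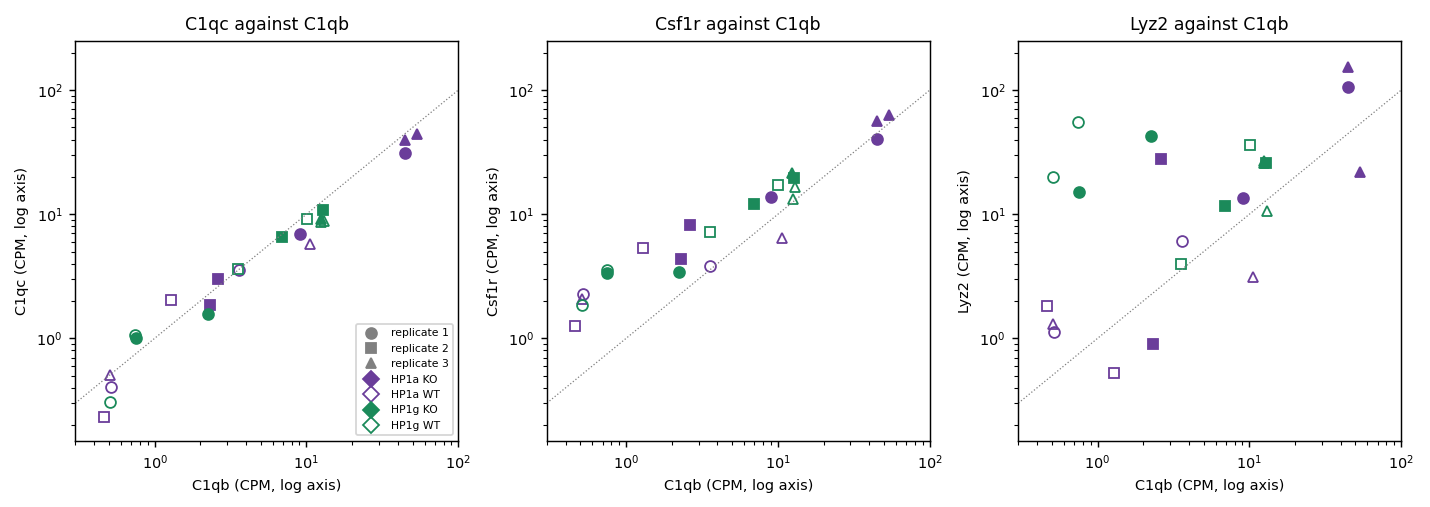
C1qc, Csf1r and Lyz2 against C1qb (CPM after TMM scaling, log axes) in the 23 grafted libraries; purple is the HP1α and green the HP1γ line, filled symbols are KO and open symbols WT, shapes are replicates, and the dotted line marks equal CPM. C1qc and Csf1r follow C1qb over its range of 0.464 to 53.8 CPM, whereas Lyz2 scatters, with the HP1γ replicate 1 libraries at 15.04 to 55.0 CPM of Lyz2 for 0.512 to 2.23 CPM of C1qb.

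Lists of other cell types moved with the members in part. In HP1α KO Tconv the 4 MHC class II genes summed to 160.9, 80.2 and 562.0 CPM and the 7 erythroid genes found in the table to 94.3, 26.5 and 779.3 CPM, against 34.7 to 47.1 CPM and 1.80 to 3.44 CPM in the 3 WT Tconv libraries. With Treg, HP1α KO cells held 756.6, 84.6 and 671.1 CPM of MHC class II and 593.1, 113.2 and 717.2 CPM of erythroid transcripts, and WT cells 88.6 to 390.1 CPM and 2.66 to 49.96 CPM. Naive libraries held 10.02 to 31.5 CPM of MHC class II and 9.95 to 181.0 CPM of erythroid transcripts. The libraries highest in the members, KO replicates 1 and 3, were thus also the highest of their line in erythroid transcripts in each condition.

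The 12 neutrophil genes need a further word, since Mmp9, which activated T cells also transcribe, led the list in grafted cells at a mean of 73.1 CPM. Without Mmp9, a choice made after its values were seen, the remaining 11 genes summed to 0.161 to 40.6 CPM in HP1α WT and 1.96 to 491.0 CPM in HP1α KO grafted libraries. They summed to 148.6 to 599.6 CPM in the HP1γ replicate 1 libraries and 4.30 to 123.9 CPM in the other 7 of that line. Naive libraries held at most 2.80 CPM. Dendritic cell genes, 5.37 to 37.7 CPM in grafted libraries, and B cell genes, 3.30 to 63.4 CPM, stayed lower, and CD8 T or NK genes were at 6.998 to 27.7 CPM against 19.0 to 30.4 CPM in naive cells. The 10 T cell genes summed to 8930.3, 9357 and 9269 CPM in HP1α KO Tconv and to 9907, 10257.6 and 10861 CPM in WT Tconv. None of the 10 was called in the 4 KO against WT comparisons of grafted cells. The part of these cell type lists in the results on the members was not tested.

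**Figure D5:**
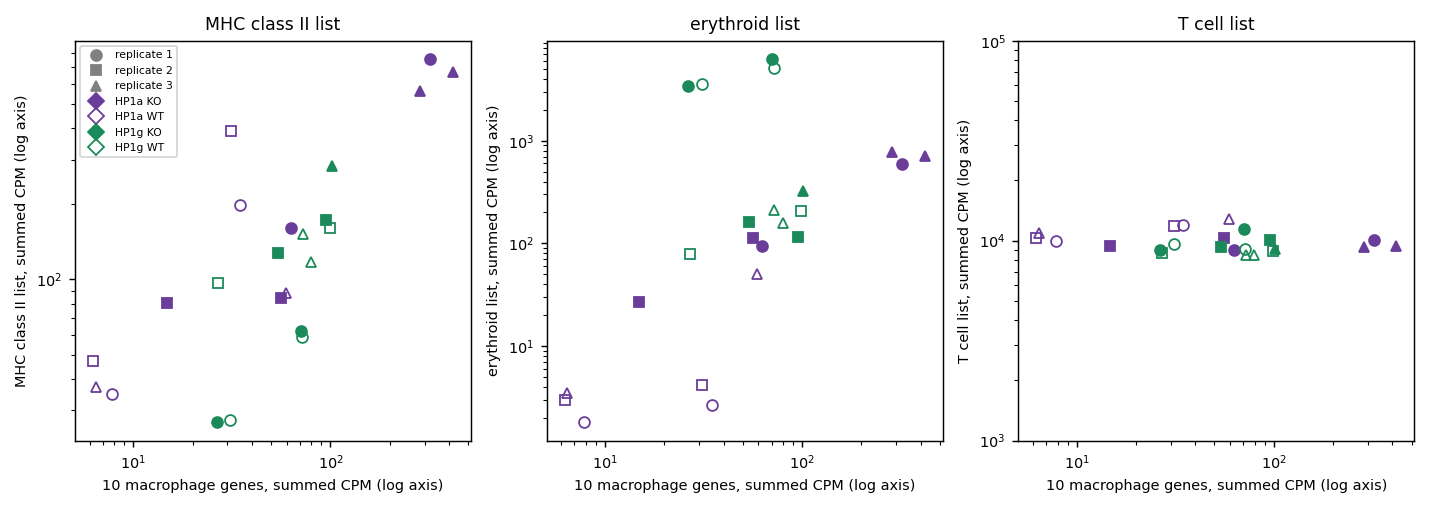
Summed CPM of the MHC class II, erythroid and T cell lists against the summed CPM of the 10 macrophage genes (log axes) in the 23 grafted libraries, with colours and symbols as in the plot against C1qb. MHC class II reaches 756.6 CPM in a library high in the members, is at 26.9 to 62.2 CPM in the HP1γ replicate 1 libraries and runs against the members in HP1α WT Tconv with Treg (88.6 CPM in the library highest and 390.1 CPM in the library lowest in the members), those 4 HP1γ libraries lie at 3419.6 CPM or more of erythroid transcripts, and the T cell list stays between 8441 and 12829.9 CPM throughout.

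Across all 35 libraries genes whose levels followed the members' sum closely, ranked by Spearman correlation among the 12786 genes averaging 1 CPM or more, were Fcer1g (0.92), Slc40a1 and Vcam1 (0.92 each), Pla2g7 and Hmox1 (0.91 each), Fcna (0.91), Hcar2 (0.91), and Cfp and Sirpa (0.90 each). The measure is a description over libraries that share tissue, preparation and, within groups, treatment. Fcer1g encodes the common chain of activating Fc receptors, Sirpa the receptor for CD47 and Cfp properdin, a component of complement. Within the 23 grafted libraries alone, Fcer1g, Slc40a1, Pla2g7, Cfp and Sirpa were again among the first 10, as were Pirb, Fcgr3, Cd300a and Cd63, with correlations from 0.90 for Pirb to 0.88 for Sirpa.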

How the data were processed

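RNA was measured in 36 libraries of naive CD4+ T cells and sorted Tconv, 3 per group. The authors made SMART-Seq v4 PLUS libraries, ran nf-core/rnaseq on the paired-end reads, with STAR alignment to GRCm39, the gene models of Ensembl, and Salmon for quantification. The deposited values are estimated counts per gene, unscaled and unfiltered, and 82.9% of them, zeros included, were exactly whole. They were rounded to whole counts here. Groups were taken from the sample titles. The library HP1γ KO Tconv with Treg, replicate 3, was left out of the fits, and each of the other 35 columns entered as 1 library. No library was a copy of another of its group, as in each of 34 pairs at least 24.6% of genes differed by more than 3 counting errors. No column of another sample was present.

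CPM (counts relative to library size) used TMM-scaled library sizes over the 35 libraries. Each of 14 comparisons, 2 of them interactions, was fitted on its own groups with edgeR 4.0.16 (R 4.3.3; glmQLFit, robust, filterByExpr with defaults), and p-values were adjusted over all genes tested. Calls needed adjusted p below 0.05 and a log2 fold change beyond 1. Counts of members with an unadjusted p below 0.05 are given without the share over all genes and are not calls. Alternatives were DESeq2 1.42.0, size factors by RLE, no filter on low counts, no fold threshold, a replicate block, 1 fit over all 35 libraries, leaving out each library, and including the library left out. Fits were tested on simulated counts. Same-numbered libraries deviated together in every pair (correlation over 0.1) for HP1α naive KO and WT (0.441 to 0.794) and for HP1γ WT Tconv with and without Treg (0.132 to 0.432), by the numbers in the titles, and in the other comparisons either a correlation was at or under 0.1 or there were fewer than 3 pairs. All 10 members are given by level, and their fold changes where called or not overlapping between groups; other fold changes of members were chosen after their values were seen. Likeness was ranked over genes averaging 1 CPM or more, and genes of other lists were named where called or most abundant, at most 5 a comparison. Some genes that these rules would name are not reported here. The members and lists were chosen with earlier results of these data known. The detection floor was 3 counts, worth at most 0.0810 CPM, and without molecular identifiers intervals cover counting error only. Exon lengths are from GENCODE (GRCm39) and promoters from RefSeq (GRCm38.p6), and coordinates of the builds were not mixed.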

Additional observations from a re-analysis of the deposited data

Results flagged for a closer look

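The library left out, HP1γ KO Tconv with Treg replicate 3, held 4 members above every HP1γ WT Tconv with Treg library when all 36 libraries were scaled together by TMM. Csf1r was at 24.3 CPM against at most 16.7 CPM in those 3 libraries, Adgre1 at 6.95 against 6.27 CPM, Cd68 at 6.61 against 4.27 CPM and C1qa at 42.1 against 5.66 CPM. On library totals without TMM, only C1qa stayed above, at 16.4 against 5.67 CPM. Scaling by TMM raised every level of the library left out, that of Csf1r from 9.47 to 24.3 CPM. The share of all genes that lay above the 3 WT libraries is not given, so that the 4 members cannot be set against it. Of the C1q counts in that library 80.3% were C1qa, where the grafted libraries with at least 100 C1q counts had 13.3 to 32.9%. Tyrobp had 1 count there and Lyz2 40 counts. The study had set the library aside on quality measures, and their part in these values was not tested.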

How the results depend on the processing

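Members called in the HP1α KO against WT comparisons depended on the test. Where edgeR called 0, DESeq2 called 7 in Tconv and 6 with Treg. It called 1 in HP1γ KO against WT with Treg, where its share over all genes is not given. With a replicate block, 1 member was called in HP1α KO against WT Tconv (Cd14, 4.93, adjusted p = 0.0343), 1 with Treg (Lyz2, 5.09, adjusted p = 0.0449) and 4 in HP1α WT Tconv with Treg against Tconv (main value 7), although the numbers did not pair these libraries by the correlation of their deviations (-0.119 to 0.258, -0.0959 to 0.118 and 0.0295 to 0.168). It changed no other count. With all 35 libraries in 1 fit, 1 member was called in HP1α KO against WT with Treg and 0 in HP1α WT Tconv against naive (main value 1). Leaving out 1 library at a time gave 0 to 1 members in HP1α KO against WT Tconv, 0 to 1 with Treg, 0 to 8 in HP1α WT Tconv with Treg against Tconv and 1 to 2 in HP1α WT Tconv against naive, the 2 without WT naive replicate 3. The cause was not tested, except that fits with a library left out hold fewer samples. Fold changes of members called or not overlapping kept their sign under every alternative run. Among the others printed, leaving out 1 library moved Cd68 in HP1α KO against WT with Treg between -0.16 and 0.64 and Csf1r in HP1α WT Tconv against naive between -0.29 and 0.14. RLE size factors, no filter on low counts and no fold threshold each left all 14 counts within 1.5 times, and group sums moved by less than their SD. Of the 10 genes most like the members, 5 were shared with the ranking over the 23 grafted libraries. At these depths 4 members had too few counts to be tested in HP1α WT Tconv against naive.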
